A study of Mus musculus with 6 samples.

Results

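Rab proteins are small GTPases that give membranes their identity. Exchange factors load a Rab with GTP on its own compartment, where it recruits tethers and motors, and GTPase-activating proteins turn it off again. In macrophages Rabs direct phagosome maturation and recycling, and in osteoclasts they bring acid vesicles to the ruffled border that dissolves bone. The genes described here are the protein-coding mouse genes whose GENCODE M21 symbol is Rab followed by a number and, where present, a letter. There were 59 of them among 55487 genes counted, and 39 reached 0.5 CPM (counts scaled to a common library size) in at least 3 of 6 libraries, a level that 10873 genes reached in all. The rule itself uses names and this level and no expression difference, but members were chosen with earlier results of these data known.

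RNA was sequenced from RAW264.7 cells, an established mouse macrophage line that can form osteoclasts, and all 6 samples had been given RANKL and M-CSF, which together turn such cells into osteoclasts. Of these, 3 samples are titled SMART-Cas9 and carry the genotype RhoA knockout, and 3 are titled Control, carry the genotype wt and are called untreated in the design text. RhoA is the small GTPase that controls actin stress fibres and contraction, and the study asked what its loss in macrophages does in the setting of arthritic bone loss. No group had Cas9 without the edit, so effects of Cas9 and of the edit cannot be told apart, and all samples come from 1 line. Separate cultures are not stated for the replicates. The p-values set the difference between groups against the spread among these samples within a group. Part of that spread may be technical only, and the p-values may then be too small.

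The targeted gene was not lower. Rhoa had 34.2, 29.9 and 31.5 CPM in the knockout-labelled libraries, against 21.4, 25.8 and 24.4 CPM in control, with log2 fold change 0.41 ± 0.12 (SE) and adjusted p 0.0136. That p was 0.0741 without RhoA knockout replicate 1 and 0.0645 without control replicate 1. Counts per gene cannot tell an edit that leaves the transcript in place from labels that were exchanged. The groups are therefore named by their labels throughout, and exchanged labels would turn the direction of every difference given here. Totals ran from 71777994 to 81830819 counts in knockout-labelled libraries and from 60198645 to 79918899 in control. The 10 most abundant genes held 43.14 to 46.75% of knockout-labelled counts and 59.55 to 60.99% of control counts, so CPM were scaled by TMM factors, which allow for such a difference in composition. Mitochondrial genes held 12.3, 11.9 and 9.95% of counts in knockout-labelled libraries, against 8.68, 8.69 and 7.01% in control, without overlap, and their part in the results was not tested. Replicate 3 of each group stood apart from the other libraries of its group. All 9 macrophage markers were detected, with 5 higher and 4 lower, or 100% called beside 43.2% of all genes tested. Csf1r, Cd68, Lyz2, Fcer1g and Tyrobp were higher, and Ptprc, Adgre1, Itgam and Cd14 were lower. Of 10 osteoclast markers 7 were tested, 2 were higher (Ctsk and Atp6v0d2) and 3 lower (Acp5, Mmp9 and Dcstamp), or 71.4% called. Ctsk averaged 12.5 ± 0.59 CPM in knockout-labelled libraries and 5.81 ± 1.18 CPM in control. Acp5 averaged 0.82 ± 0.12 CPM in knockout-labelled libraries and 2.22 ± 0.43 CPM in control. Calcr and Oscar, which mark mature osteoclasts, were at 0 in every library. Of 8 markers of other cell types 5 were at 0 throughout. The epithelial genes Epcam and Krt18 had 39 and 48 counts in control replicate 1 and 0 in the other libraries, and Pecam1 of vessels had 2 counts in knockout-labelled replicate 3 and 4 in control replicate 3. The part that a change in cell state or in cell mixture plays in the results was not tested, and in RNA from whole cultures fewer cells of a kind and less RNA per cell cannot be told apart.

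The coding ends of 3 pairs of close relatives, each with at least 1 called member, show how such relatives are alike and where they are not. A Rab is held on its membrane by geranylgeranyl lipids on cysteines at its carboxyl end. The lines give the last 60 coding bases before the stop codon from GENCODE M21 transcripts, 5′ to 3′, with capitals for the cysteine codons TGT and TGC among the last 5 codons.
Rab5a: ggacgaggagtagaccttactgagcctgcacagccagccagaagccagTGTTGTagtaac
Rab5c: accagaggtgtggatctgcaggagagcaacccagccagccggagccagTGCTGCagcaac
Rab7: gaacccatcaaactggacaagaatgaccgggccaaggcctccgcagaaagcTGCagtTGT
Rab7b: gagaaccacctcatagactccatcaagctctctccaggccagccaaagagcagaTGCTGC
Rab8a: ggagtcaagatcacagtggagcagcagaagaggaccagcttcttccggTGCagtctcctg
Rab8b: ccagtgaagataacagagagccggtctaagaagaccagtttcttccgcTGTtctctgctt
All 39 reported genes had at least 1 cysteine codon among the last 5, 32 had 2 or more and 7 had exactly 1, among them Rab8a and Rab8b. Across the whole coding sequence Rab8a and Rab8b shared 78.0% of aligned bases, Rab5a and Rab5c 74.3%, and Rab7 and Rab7b 62.7%. No pair of Rab genes matched at 95% or more over 200 bases, the identity at which shared reads would make a count uncertain.

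Members of the family moved in both directions. Of the 39 genes, 11 rose and 11 fell in the knockout-labelled libraries at an adjusted p under 0.05 (edgeR quasi-likelihood test, Benjamini-Hochberg adjustment over all 12930 genes tested), and 17 did not pass. That is 56.4% of them, beside 49.6% of the 10873 genes at the same level and 43.2% of all genes tested. Calls were 24.1% higher and 25.5% lower among genes at that level, and 21.0% higher and 22.3% lower among all genes tested. The median log2 fold change was -0.06 for the 39 genes, -0.03 for genes at that level and -0.03 for all genes tested. The median size of the change, sign aside, was 0.87, against 0.68 for genes at that level and 0.73 for all genes tested. A change of at least 2-fold with a call was seen in 14 genes, 6 higher and 8 lower, or 35.9% against 28.9% of genes at that level and 25.9% of all. The 3 libraries of each group did not overlap for 25 of the 39 genes, or 64.1%, beside 60.3% at that level and 55.8% of all. The share of Rab genes that differed was thus near that of other genes at the same level, and what the values show is which members went which way. An overlapping gene or near-identical copy makes 7 of the 39 uncertain, and of the other 32 genes 10 rose and 8 fell. Without replicate 3 of both groups 9 rose and 12 fell.

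Exon length moved with the fold changes of all genes. The median log2 fold change over all genes tested was 0.31 for genes of up to 2698 bases of exon, 0.02 for those up to 5307 bases and -0.36 for longer ones, in groups of equal size. The Rab genes had a median exon length of 3513 bases, against 3856 for all genes tested. The rising Rab genes had a median of 2385 bases and the falling ones 3513. With the trend on length removed in each library, 8 Rab genes rose and 12 fell, beside 2667 and 2536 of all 12930 genes tested. This keeps all 11 falls of Rab genes, adds Rab11a (log2 fold change -0.42, adjusted p 0.0173) and loses Rab4a, Rab4b and Rab34.

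**Figure D1:**
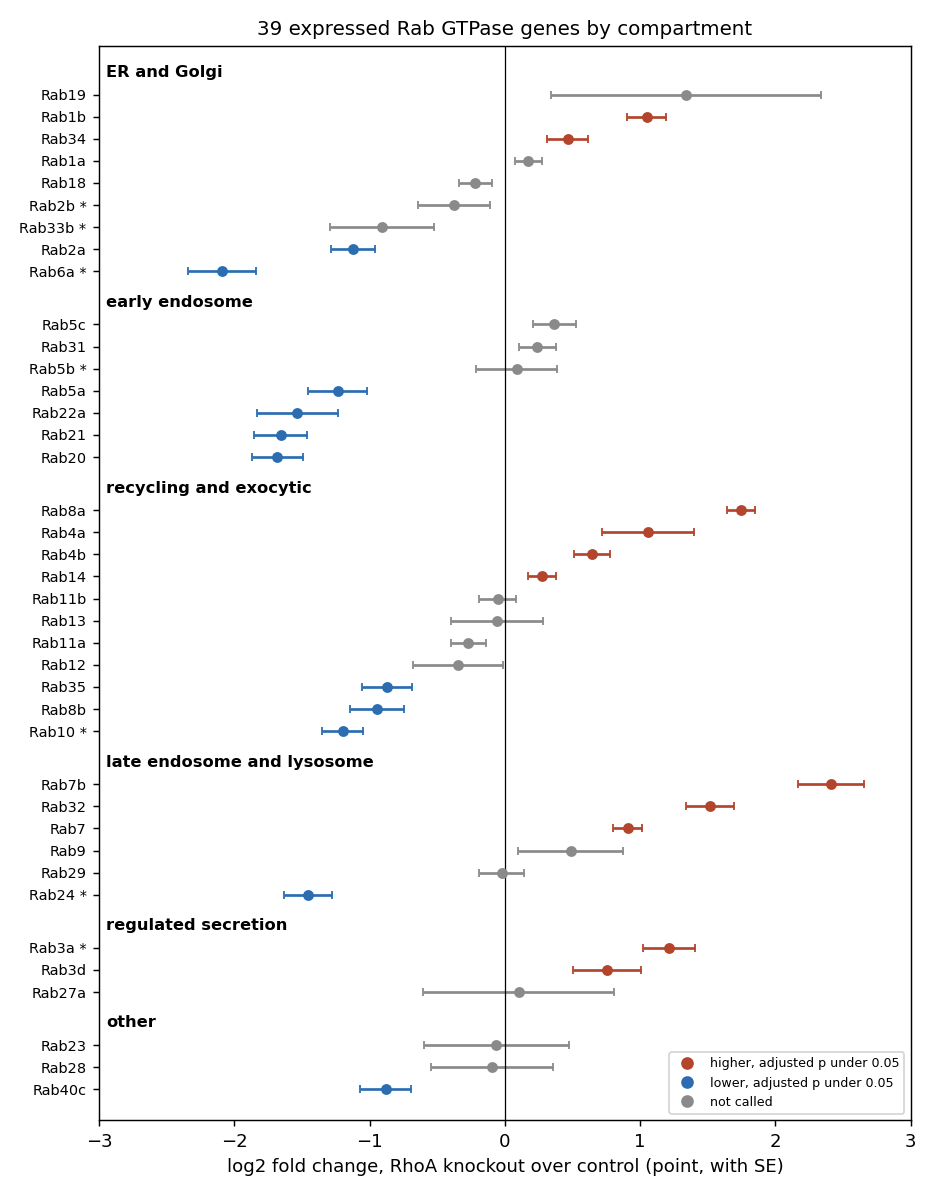
Log2 fold change with its SE (x axis) for the 39 reported Rab genes, knockout-labelled over control, grouped by compartment; red points are higher and blue points lower at an adjusted p under 0.05, grey points are not called, and asterisks mark genes with an overlapping gene or near-identical copy. Among the early endosome genes 4 of 7 are lower and none is higher, or 57.1% called beside 49.6% of genes at the same level. Rab7b at 2.41 and Rab6a at -2.10 lie at the ends of the scale.

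The early endosome class had 4 lower genes of 7 and none higher, with a median log2 fold change of -1.24. The called share was 57.1%, all lower, beside 49.6% called and 25.5% lower among genes at the same level. With the length trend removed the counts were the same and the median was -1.10. The Rabs of this class receive cargo just after uptake from the surface or in new phagosomes. Rab20 (chr8:11453518-11478710, GRCm38, minus strand), which acts on phagosomes and endosomes, had 5.68, 4.84 and 4.84 CPM in knockout-labelled libraries, against 12.3, 18.0 and 19.1 CPM in control. Its log2 fold change was -1.68 ± 0.19 with an adjusted p of 1.87e-05, and the groups did not overlap. Rab21 (chr10:115287084-115315594, minus strand), which moves integrins through early endosomes, had 2.64, 2.69 and 3.65 CPM in knockout-labelled libraries, against 9.5, 9.89 and 8.94 CPM in control. It fell by 1.66 ± 0.20 on the log2 scale, and its highest knockout-labelled library stayed far under the lowest control library.

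Rab22a (chr2:173659760-173707343, plus strand), which sorts cargo between early and recycling endosomes, had 2.49, 2.49 and 1.14 CPM in knockout-labelled libraries, against 6.57, 5.86 and 5.36 CPM in control. It fell by 1.54 ± 0.30 on the log2 scale with an adjusted p of 0.00130, and knockout-labelled replicate 3 was the lowest library. Rab5a (chr17:53479234-53507680, plus strand), which drives early endosome fusion, had 2.62, 2.63 and 2.18 CPM in knockout-labelled libraries, against 6.402, 5.12 and 6.01 CPM in control. It fell by 1.24 ± 0.22 on the log2 scale with an adjusted p of 6.62e-04, again without overlap. The other Rab5 genes did not pass the test. Rab5c averaged 12.8 ± 1.45 CPM in knockout-labelled libraries and 9.96 ± 1.35 CPM in control (SD, n = 3 each), a log2 fold change of 0.37 with an adjusted p of 0.0815 (0.49 and 0.0483 without control replicate 1). Rab5b averaged 2.42 ± 0.48 CPM in knockout-labelled libraries and 2.28 ± 0.59 CPM in control, and its counts are uncertain because the pseudogene Gm13991 is a near-identical copy. Rab31, a relative of Rab22a on endosomes and the trans-Golgi network, averaged 52.9 ± 9.59 CPM in knockout-labelled libraries and 44.8 ± 3.24 CPM in control, with a log2 fold change of 0.24 and an adjusted p of 0.182 (0.37 and 0.0307 without RhoA knockout replicate 3).

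The late endosome and lysosome class went the other way for 3 of its 6 genes, and its median log2 fold change was 0.70. With 1 gene lower, 66.7% of the class was called, beside 49.6% of genes at the same level. With the length trend removed 3 rose and 1 fell, and the median was 0.42. Rab7b (chr1:131688695-131715439, plus strand), which carries cargo from late endosomes to the Golgi and dampens Toll-like receptor signals in macrophages, had 9.02, 10.9 and 10.9 CPM in knockout-labelled libraries, against 2.62, 1.38 and 1.78 CPM in control. This was a 5.31-fold difference, a log2 fold change of 2.41 ± 0.24 with an adjusted p of 8.71e-06. The lowest knockout-labelled library was more than 3-fold above the highest control library. Rab32 (chr10:10545002-10558265, minus strand), which builds lysosome-related organelles and limits bacteria in macrophages, had 13.4, 14.8 and 13.5 CPM in knockout-labelled libraries, against 4.59, 5.95 and 4.04 CPM in control. Its log2 fold change was 1.52 ± 0.18 with an adjusted p of 2.78e-05, and the groups were again apart.

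Rab7 (chr6:87999106-88045270, minus strand), the Rab of late endosome and lysosome fusion and of the osteoclast ruffled border, had 263, 274 and 312 CPM in knockout-labelled libraries, against 158, 149 and 146 CPM in control. Its log2 fold change was 0.91 ± 0.11 with an adjusted p of 3.11e-05, and all knockout-labelled libraries lay above all control libraries. Rab24, linked to autophagy, averaged 4.36 ± 0.73 CPM in knockout-labelled libraries and 11.96 ± 0.86 CPM in control, a fall of 1.46 ± 0.18 on the log2 scale. Its gene overlaps Prelid1 on the other strand, which held at least 10300 counts in each library and differed by 0.51 on the log2 scale, so the split of reads between the pair is uncertain. Rab9, which returns mannose 6-phosphate receptors to the Golgi, and Rab29, found on the Golgi and stressed lysosomes, did not pass the test. Rab9 averaged 3.60 ± 0.67 CPM in knockout-labelled libraries and 2.57 ± 1.34 CPM in control, and Rab29 averaged 13.4 ± 3.11 CPM in knockout-labelled libraries and 13.6 ± 0.35 CPM in control.

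**Figure D2:**
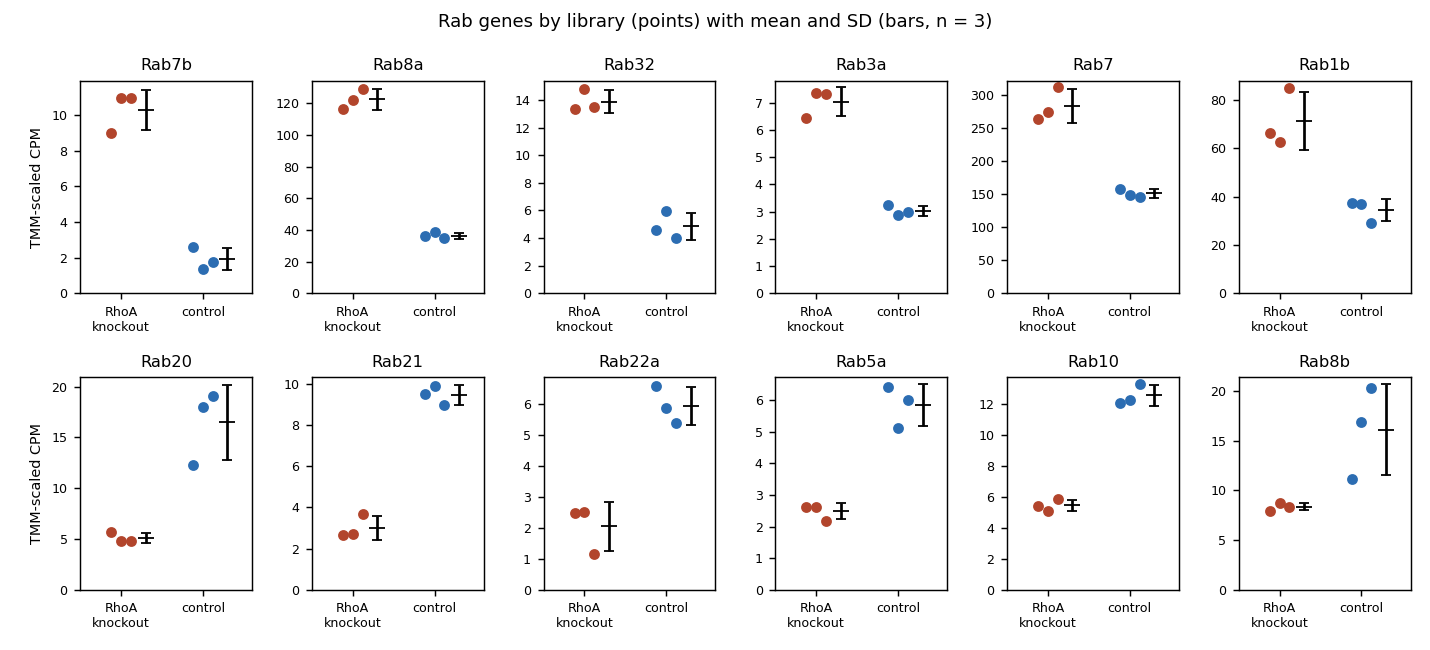
TMM-scaled CPM (y axis) of 12 Rab genes in each library (points), with the mean and SD of the 3 libraries of each group (bars), RhoA knockout on the left and control on the right of each panel. In the upper panels every knockout-labelled point lies above every control point, and in the lower panels every one lies below.

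Among the 11 recycling and exocytic genes, which return cargo to the surface, 4 rose and 3 fell, and the median log2 fold change was -0.06. That is 63.6% called, beside 49.6% of genes at the same level. With the length trend removed 2 rose and 4 fell, and the median was -0.32. Rab8a (chr8:72161200-72183904, plus strand), which delivers vesicles to the surface and acts on macrophage membranes that signal through Toll-like receptors, had 116, 122 and 129 CPM in knockout-labelled libraries, against 36.0, 38.6 and 34.9 CPM in control. Its log2 fold change of 1.75 ± 0.10 had the smallest adjusted p of the 39 genes, 1.39e-07. Its relative Rab8b (chr9:66843664-66919687, minus strand) had 7.97, 8.70 and 8.36 CPM in knockout-labelled libraries, against 11.2, 16.9 and 20.3 CPM in control, a fall of 0.95 ± 0.20 on the log2 scale with an adjusted p of 0.00210. The pair thus moved in opposite directions with no overlap of groups in either gene.

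Rab10, which sends vesicles to the plasma membrane, had 5.42, 5.11 and 5.84 CPM in knockout-labelled libraries, against 12.1, 12.3 and 13.3 CPM in control. It fell by 1.2 ± 0.15 on the log2 scale, and its counts are uncertain because the antisense gene Rab10os overlaps it, at 2.43 ± 0.40 CPM in knockout-labelled libraries and 2.42 ± 0.48 CPM in control. Rab13, its relative at cell junctions, did not pass, with 2.36 ± 0.15 CPM in knockout-labelled libraries and 2.46 ± 1.17 CPM in control. Rab35, a Rab of rapid recycling and actin-rich membranes, fell by 0.87 ± 0.18 on the log2 scale with an adjusted p of 0.00219. It averaged 4.30 ± 0.63 CPM in knockout-labelled libraries and 7.87 ± 0.07 CPM in control.

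Both Rab4 genes, which act in rapid recycling, were higher. Rab4b averaged 22.3 ± 1.45 CPM in knockout-labelled libraries and 14.3 ± 1.77 CPM in control, a log2 fold change of 0.64 ± 0.13 with an adjusted p of 0.00197 (0.33 and 0.0582 with the length trend removed). The groups did not overlap for either gene. Rab4a averaged 3.77 ± 0.68 CPM in knockout-labelled libraries and 1.80 ± 0.75 CPM in control, a log2 fold change of 1.06 ± 0.34 with an adjusted p of 0.0242. The Rab4a call was lost with the length trend removed (0.102), without RhoA knockout replicate 2 (0.0756) or 3 (0.0833) and without control replicate 1 (0.0543) or 2 (0.0715). Rab14, which connects the trans-Golgi network with endosomes, averaged 59.96 ± 1.40 CPM in knockout-labelled libraries and 49.6 ± 3.5 CPM in control, a log2 fold change of 0.27 ± 0.10 with an adjusted p of 0.0451. Its adjusted p was 0.156, 0.121 and 0.0510 without RhoA knockout replicates 1, 2 and 3, and 0.170 and 0.0731 without control replicates 2 and 3, while its log2 fold change was 0.87 with the length trend removed.

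Rab11a (chr9:64715299-64737758, minus strand), the main Rab of slow recycling, had 280, 294.5 and 346 CPM in knockout-labelled libraries, against 364, 328 and 418 CPM in control. The groups overlapped, and the log2 fold change of -0.27 ± 0.13 had an adjusted p of 0.109, which was 0.0173 with the length trend removed and 0.0400 without RhoA knockout replicate 3. Its close relative Rab11b averaged 15.1 ± 1.09 CPM in knockout-labelled libraries and 15.7 ± 1.96 CPM in control. Rab12, which acts on recycling endosomes and lysosomes, averaged 2.14 ± 0.96 CPM in knockout-labelled libraries and 2.72 ± 0.17 CPM in control. Neither Rab11b nor Rab12 passed the test.

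In the endoplasmic reticulum (ER) and Golgi class 2 of 9 genes rose and 2 fell, with a median log2 fold change of -0.22. That is 44.4% called, beside 49.6% of genes at the same level. With the length trend removed 1 rose and 2 fell, and the median was 0.06. Rab1b (chr19:5099205-5107072, minus strand), which directs vesicles from the ER to the Golgi, had 66.3, 62.8 and 85.1 CPM in knockout-labelled libraries, against 37.6, 36.9 and 29.1 CPM in control. Its log2 fold change was 1.05 ± 0.14 with an adjusted p of 9.44e-05, and the lowest knockout-labelled library lay far above the highest control library. Rab1a, which shares that role, had 86.6, 81.8 and 87.8 CPM in knockout-labelled libraries, against 80.6, 71.1 and 75.9 CPM in control, and its log2 fold change of 0.17 had an adjusted p of 0.192. The groups did not overlap for Rab1a, but the difference did not pass the test.

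Rab2a (chr4:8535644-8607778, plus strand), which acts between the ER and Golgi and in late endosome fusion, had 6.90, 5.10 and 6.36 CPM in knockout-labelled libraries, against 13.8, 12.5 and 13.6 CPM in control. It fell by 1.12 ± 0.16 on the log2 scale with an adjusted p of 1.53e-04. All knockout-labelled libraries lay below all control libraries. Rab2b averaged 2.52 ± 0.42 CPM in knockout-labelled libraries and 3.27 ± 0.61 CPM in control, did not pass, and overlaps Tox4 on the other strand. Rab6a, which runs retrograde traffic through the Golgi, had 1.39, 1.13 and 1.34 CPM in knockout-labelled libraries, against 6.52, 5.07 and 4.90 CPM in control. Its fall of 2.10 ± 0.25 on the log2 scale is uncertain, because its gene overlaps Mrpl48, which held at least 4176 counts in each library and had a log2 fold change of 0.31.

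Rab34, which positions lysosomes from the Golgi, averaged 11.7 ± 0.50 CPM in knockout-labelled libraries and 8.44 ± 1.03 CPM in control, a log2 fold change of 0.46 ± 0.15 with an adjusted p of 0.0266. That call was lost with the length trend removed (0.289), without RhoA knockout replicate 1 (0.0764) or 2 (0.0967) and without control replicate 2 (0.107) or 3 (0.0601). Rab18, found on lipid droplets and the ER, averaged 27.2 ± 3.49 CPM in knockout-labelled libraries and 31.7 ± 1.03 CPM in control and did not pass. The last pair of this class are low genes. Rab33b, a Golgi Rab that also serves autophagy, averaged 1.05 ± 0.44 CPM in knockout-labelled libraries and 1.98 ± 0.22 CPM in control, with an adjusted p of 0.0785 (0.0444 without RhoA knockout replicate 3), and repeat sequence in its transcript recurs in many other genes. Rab19, placed at the Golgi, averaged 1.01 ± 0.72 CPM in knockout-labelled libraries and 0.40 ± 0.35 CPM in control, and the groups overlapped.

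Of the 3 genes of regulated secretion 2 rose, also with the length trend removed. That is 66.7% called, beside 49.6% of genes at the same level. Rab3a (chr8:70754679-70758677, plus strand), best known from synaptic vesicles, had 6.42, 7.35 and 7.32 CPM in knockout-labelled libraries, against 3.23, 2.87 and 2.99 CPM in control, a log2 fold change of 1.21 ± 0.19 with an adjusted p of 3.17e-04. It overlaps Mpv17l2 on the other strand, which differed by 0.72 on the log2 scale, so the share of reads that belongs to Rab3a is uncertain, although its groups did not overlap. Rab3d, a Rab of secretory granules that bone resorption requires in mice, had 5.37, 6.23 and 10.6 CPM in knockout-labelled libraries, against 4.34, 4.85 and 3.95 CPM in control. Knockout-labelled replicate 3 was the highest library, and the log2 fold change of 0.75 ± 0.25, with an adjusted p of 0.0302, was 0.41 with 0.160 without it. The adjusted p was 0.0823, 0.0554 and 0.0874 without control replicates 1, 2 and 3. Rab27a, which docks secretory lysosomes, averaged 0.47 ± 0.22 CPM in knockout-labelled libraries and 0.44 ± 0.19 CPM in control.

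In the remaining class Rab40c, which forms ubiquitin ligases, fell by 0.88 ± 0.19 on the log2 scale. It averaged 4.61 ± 0.64 CPM in knockout-labelled libraries and 8.499 ± 1.08 CPM in control, with an adjusted p of 0.00241. Rab23, a brake on Hedgehog signalling, averaged 0.65 ± 0.25 CPM in knockout-labelled libraries and 0.68 ± 0.13 CPM in control. Rab28, a Rab of cilia, averaged 0.93 ± 0.23 CPM in knockout-labelled libraries and 1.00 ± 0.39 CPM in control, and neither of the pair passed the test.

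Osteoclast work has singled out 8 Rabs, namely Rab3d, Rab5c, Rab7, Rab9, Rab13, Rab27a, Rab38 and Rab44. Of these 6 were tested, Rab7 and Rab3d rose, none fell, and the median log2 fold change was 0.43. The called share, 33.3% of those tested, was below the 43.2% of all genes tested, and the Rab3d call was lost under 7 of 17 alternatives. Rab44, which is found in immune cells and osteoclasts of mice, had no count in any library. Rab38, a partner of Rab32 on lysosome-related organelles, had 5 counts in control replicate 1 and none elsewhere. A count of 0 in a library allows a level of up to 0.0367 to 0.0498 CPM before scaling, the value of 3 counts, and this covers counting error only.

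The level rule kept 36 genes that were at 0.5 CPM or more in every library, Rab23 at that level in 5 libraries, and Rab19 and Rab27a at it in 3. Just outside it, Rab43 and Rab39 reached it in 1 library each and Rab42 in none. No reported gene reached the level in 1 group alone. Of the 20 genes below it, 9 had no count in any library and the highest single value was 134 counts, for Rab43 in knockout-labelled replicate 2. The Rab43 counts are uncertain, because Gm45140 overlaps it on the same strand and is identical over 4166 bases. Gm45140 had 181, 27 and 236 counts in knockout-labelled libraries and 270, 119 and 185 in control. Rab39, Rab42 and Rab43 still passed the filter of the test and none was called.

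On the scale of levels per kb of exon, which allows genes to be compared with each other, 2 genes stood far above the rest in both groups. Rab7 averaged 108 ± 9.92 CPM per kb in knockout-labelled libraries and 57.8 ± 2.40 in control, and Rab11a 103 ± 11.7 in knockout-labelled libraries and 124 ± 15.0 in control. Rab7 ranked first in the knockout-labelled libraries, where its level and that of Rab11a differed by less than their SDs, and it ranked second to Rab11a in control. Rab1b followed with 31.4 ± 5.28 CPM per kb in knockout-labelled libraries and 15.2 ± 2.06 in control. Next came Rab8a with 26.2 ± 1.40 CPM per kb in knockout-labelled libraries and 7.80 ± 0.41 in control, and Rab1a with 22.5 ± 0.84 in knockout-labelled libraries and 19.97 ± 1.25 in control. Rab1b and Rab8a lay within 1 SD of each other in the knockout-labelled libraries. Rab8a ranked 4 in knockout-labelled libraries and 8 in control. Rab32 ranked 9 in knockout-labelled libraries and 21 in control, and Rab7b ranked 18 in knockout-labelled libraries and 35 in control. Rab20 went the other way and ranked 14 in knockout-labelled libraries and 5 in control.

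**Figure D3:**
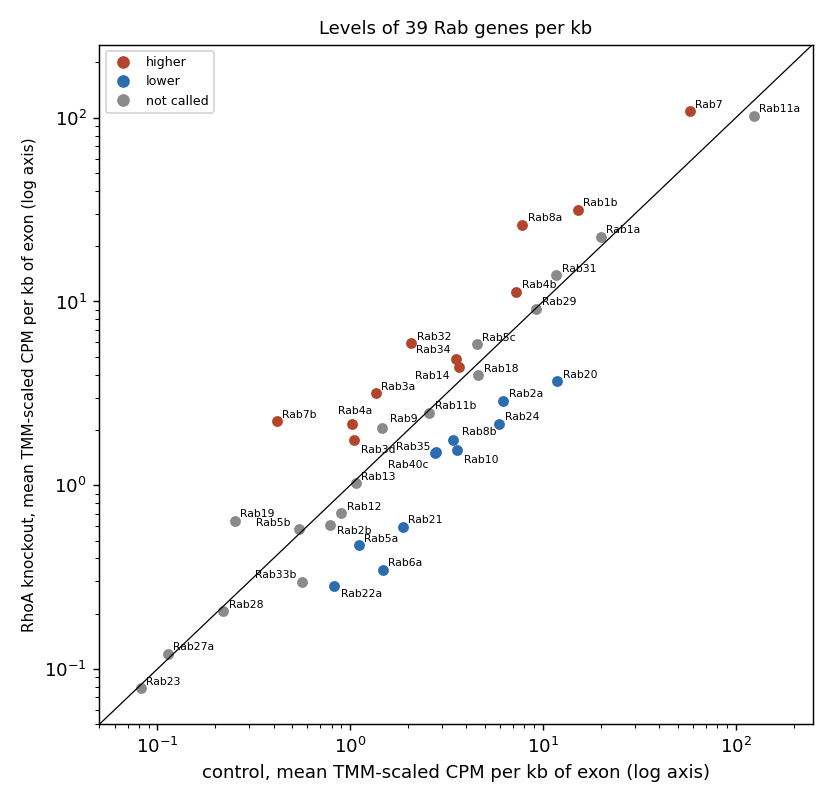
Mean TMM-scaled CPM per kb of exon of the 39 Rab genes in knockout-labelled libraries (y axis) and control (x axis), both on log axes, with the line of equal levels; red points are higher, blue points lower and grey points not called. Rab7 and Rab11a lie above 50 on both axes, and Rab8a, Rab32 and Rab7b lie well above the line.

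As a share of all Rab counts in a library, Rab11a took 24.48, 25.43 and 27.12% in knockout-labelled libraries, against 35.96, 34.37 and 40.02% in control. Rab7 took 23.04, 23.66 and 24.46% in knockout-labelled libraries, against 15.59, 15.61 and 13.97% in control. Rab8a took 10.17, 10.53 and 10.13% in knockout-labelled libraries, against 3.56, 4.04 and 3.34% in control. The groups did not overlap for any of these 3 shares. The summed level of all 59 genes was 1192 ± 73.6 CPM in knockout-labelled libraries and 1004 ± 44.9 CPM in control, a difference of 188 CPM. The exact two-sided permutation test gave p = 0.1, the smallest that 3 libraries against 3 can give, and with library totals as the only scaling the difference was 318 CPM.

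Among the 10 groups of close relatives compared here, only the Rab8 pair had calls in opposite directions. More distant relatives, which fall in separate groups, were not compared with each other. The share of a gene in the summed per-kb level of its relatives does not depend on how libraries are scaled, and 10 of 14 such groups had every member reported. The share can still carry the length trend given above, because relatives differ in exon length, and the part of that trend was not tested. Counts of Rab2b, Rab3a, Rab5b and Rab10 are uncertain for the reasons given above, and so are the shares in their groups. Rab8a made up 93.7 ± 0.29% of the Rab8 pair in knockout-labelled libraries and 70.0 ± 6.53% in control (SD, n = 3 each), a difference of 23.7 percentage points. Rab10 made up 60.3 ± 1.46% of the Rab10 and Rab13 pair in knockout-labelled libraries and 77.7 ± 7.0% in control. Rab1a made up 41.9 ± 3.27% of the Rab1 pair in knockout-labelled libraries and 56.9 ± 3.71% in control. On this per-kb scale Rab1b was the larger member in all knockout-labelled libraries and the smaller one in all control libraries. Without division by length Rab1a was the larger member in every library, at 54.7 ± 3.36% in knockout-labelled libraries and 68.8 ± 3.23% in control.

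Rab5a made up 6.84 ± 0.90% of the Rab5 trio in knockout-labelled libraries and 17.9 ± 0.98% in control, and Rab5c 84.7 ± 3.15% in knockout-labelled libraries and 73.2 ± 3.48% in control. Rab2a made up 82.4 ± 3.93% of its pair in knockout-labelled libraries and 88.9 ± 1.43% in control, and Rab22a 1.96 ± 0.53% of its pair with Rab31 in knockout-labelled libraries and 6.54 ± 0.38% in control. Rab7b made up 2.01 ± 0.17% of its pair with Rab7 in knockout-labelled libraries and 0.71 ± 0.20% in control. The groups did not overlap in these 7 of the 10 sets of relatives, which is near the 60.3% of single genes at the same level whose groups did not overlap. Each exact two-sided permutation test gave 0.1, the smallest value possible, so none could pass 0.05. The shares of Rab3a, Rab4a and Rab11a in their pairs gave 0.3, 0.4 and 0.2 in the same test. Without division by length the Rab5a difference was -18.3 rather than -11.1 percentage points, that of Rab22a -8.05 rather than -4.58, and that of Rab7 -2.26 rather than -1.30.

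**Figure D4:**
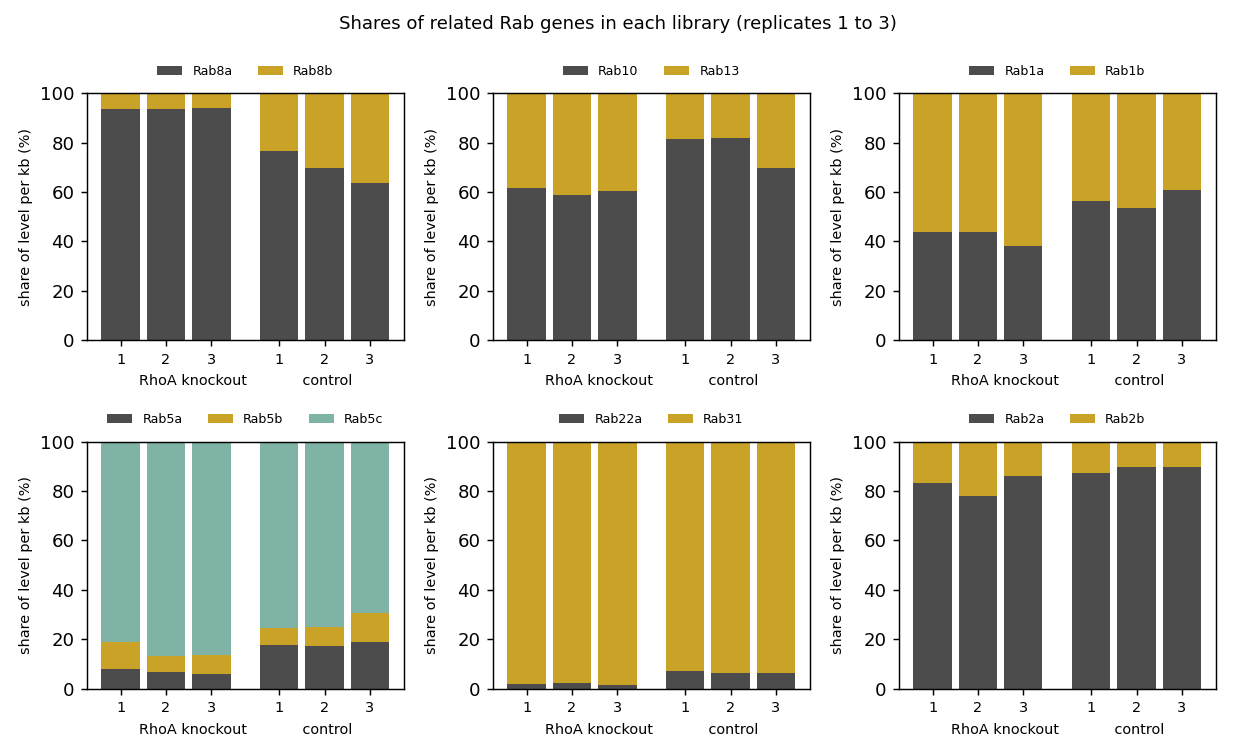
Share of each gene in the summed CPM per kb of its group of relatives (y axis, percent) in each library, with the 3 knockout-labelled libraries left of the 3 control libraries in each panel. Rab8a takes over 93% of its pair in all knockout-labelled libraries and 63.5 to 76.6% in control.

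Promoter letters were compared with the direction of change. The 250 bases before the RefSeq start (GRCm38.p6) were searched on both strands for the E-box CACGTG, a sequence bound by lysosomal and growth regulators such as TFEB and MYC. Of 35 reported genes with such a window, 5 held it, namely Rab5a, Rab20, Rab21, Rab23 and Rab27a. Among all 27025 genes with a window, expressed here or not, 6.86% held it, so the 2 sets are not alike in expression. For Rab20 the match lies inside the GENCODE transcript, so its window is not shown. Of these 5, 3 were lower, none was higher and 2 were not called, while 10 lower and 9 higher genes had a window. The same split was not made over all genes, and a link between the E-box and direction was not tested. The longer form, in which GT precedes and AC follows the E-box, was found in Rab5a and Rab21 and in 0.27% of genes. The windows of these 2 genes are given as examples of falling genes, and that of Rab8a as the clearest rising gene, which holds no E-box. Capitals mark CACGTG, and each line runs 5′ to 3′ on the strand of the gene.
Rab5a, chr17:53478984-53479233, plus strand: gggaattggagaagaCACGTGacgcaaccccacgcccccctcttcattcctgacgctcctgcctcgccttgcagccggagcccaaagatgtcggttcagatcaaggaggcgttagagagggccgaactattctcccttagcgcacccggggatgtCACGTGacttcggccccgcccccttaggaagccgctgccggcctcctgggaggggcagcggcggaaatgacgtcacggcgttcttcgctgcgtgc
Rab21, chr10:115315595-115315841, minus strand: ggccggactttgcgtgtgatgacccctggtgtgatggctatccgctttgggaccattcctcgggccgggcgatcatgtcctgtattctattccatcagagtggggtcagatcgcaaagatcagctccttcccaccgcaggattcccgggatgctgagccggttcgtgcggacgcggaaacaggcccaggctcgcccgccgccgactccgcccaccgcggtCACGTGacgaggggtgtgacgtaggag
Rab8a, chr8:72160950-72161199, plus strand: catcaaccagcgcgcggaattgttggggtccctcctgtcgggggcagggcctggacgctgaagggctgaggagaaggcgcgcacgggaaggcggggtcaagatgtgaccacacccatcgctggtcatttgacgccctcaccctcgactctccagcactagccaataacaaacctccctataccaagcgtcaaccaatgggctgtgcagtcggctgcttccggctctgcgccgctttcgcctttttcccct
In the Rab21 line 3 bases next to the start are left out because they lie in the GENCODE transcript. The kappaB letters, GGGA and TTTCC around any 1 base, were in no reported window and in 0.414% of genes, the interferon-type letters, GAAA repeated after any 2 bases, were in Rab19 and in 3.463% of genes, and the AP-1 letters TGANTCA were in Rab34 and in 7.819% of genes. A match is a string of letters, not a bound site, and no binding was measured here.

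The genes that switch Rabs on and off, attach their lipids and act for them had more lower than higher calls before length was allowed for. Of 163 such genes 140 were tested, 14 rose and 47 fell, or 43.6% called beside 43.2% of all genes tested, and the median log2 fold change was -0.34 against -0.03. These genes are part of the length trend given above. With the trend on length removed in each library, 24 of these genes rose and 26 fell and the median was -0.15. Under the same correction 2667 of all 12930 genes tested rose and 2536 fell, with a median of 0.01. With library totals as the only scaling, 17 of the regulators and effectors rose and 32 fell. The part that length plays in the lower counts was not tested further.

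Among 39 exchange factors 37 were tested, 3 rose and 11 fell, or 37.8% called beside 43.2% of all genes tested. Their median log2 fold change was -0.50. Rabgef1, which activates Rab5, averaged 1.33 ± 0.40 CPM in knockout-labelled libraries and 4.73 ± 0.55 CPM in control, a fall of 1.82 ± 0.29 on the log2 scale. Rin2, another activator of Rab5, went the other way, at 9.66 ± 0.40 CPM in knockout-labelled libraries and 2.57 ± 0.61 CPM in control, a log2 fold change of 1.90 ± 0.21. Dennd1b, which activates Rab35, had a log2 fold change of -1.67 (-0.96 with the length trend removed), and Dennd4a, which activates Rab10, of -1.52 (-0.85). Among 40 GTPase-activating proteins 36 were tested, 3 rose and 11 fell, or 38.9% called, with a median of -0.45. Tbc1d10b, of the TBC family that switches Rabs off, fell by 1.28 ± 0.12 on the log2 scale and averaged 10.5 ± 0.67 CPM in knockout-labelled libraries and 25.6 ± 1.74 CPM in control. Tbc1d5, which acts on Rab7 with retromer, had a log2 fold change of -1.12 (-0.54 with the length trend removed). Tbc1d7, a subunit of the tuberous sclerosis complex, had a log2 fold change of 1.31, and Tbc1d23, a bridge between endosomes and Golgi, of -0.71 (-0.26 and no longer called). With the length trend removed the counts were 5 higher and 5 lower for exchange factors and 7 higher and 5 lower for GTPase-activating proteins.

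Of the 9 genes that make the lipid, attach it or extract Rabs from membranes, 2 rose and 5 fell, also with the length trend removed. The called share was 77.8%, beside 43.2% of all genes tested. Fdps, the enzyme that makes farnesyl pyrophosphate and is blocked by bone-sparing bisphosphonates, averaged 505 ± 37.5 CPM in knockout-labelled libraries and 181 ± 13.5 CPM in control, a log2 fold change of 1.48 ± 0.11. Ggps1, the next enzyme, which makes geranylgeranyl pyrophosphate, averaged 5.99 ± 0.59 CPM in knockout-labelled libraries and 12.1 ± 2.27 CPM in control, a fall of 1.02 ± 0.18 on the log2 scale. Chm, the escort protein that presents Rabs for lipid attachment, averaged 0.49 ± 0.10 CPM in knockout-labelled libraries and 2.60 ± 0.59 CPM in control, a fall of 2.39 ± 0.37. Rabggtb, a subunit of the transferase, fell by 0.75 ± 0.16 on the log2 scale.

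**Figure D5:**
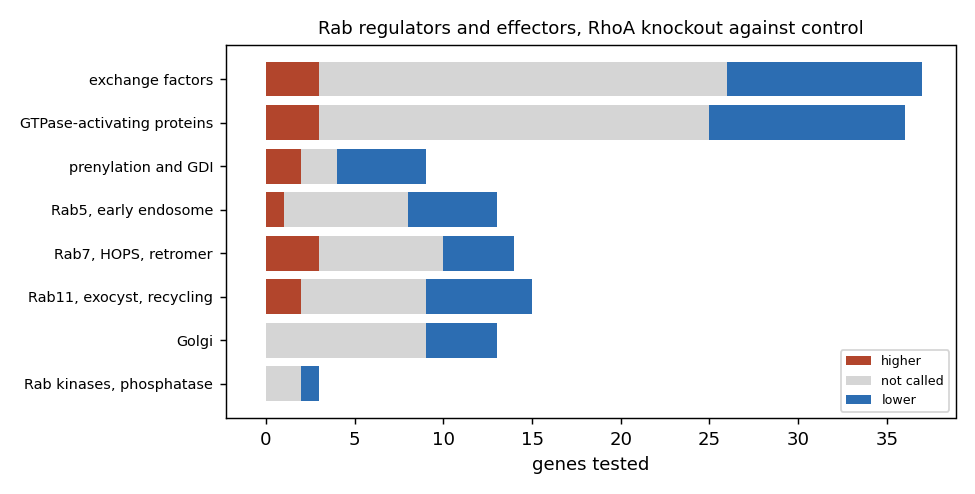
Number of genes tested (x axis) in each list of Rab regulators and effectors, split into those higher (red), not called (grey) and lower (blue) in knockout-labelled libraries against control. Lower calls outnumber higher calls in every list shown, by 11 to 3 among exchange factors, and this lead does not hold in every list once the length trend is removed.

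Among 13 effectors of Rab5 and the early endosome 1 rose and 5 fell, or 46.2% called beside 43.2% of all genes tested. Eea1, the tether that joins early endosomes, had 5.46, 5.36 and 6.93 CPM in knockout-labelled libraries, against 16.0, 19.2 and 18.2 CPM in control, a fall of 1.59 ± 0.16 on the log2 scale with an adjusted p of 7.72e-06. Its log2 fold change was -1.13 with the length trend removed, and the groups did not overlap. Rabep1, which links Rab5 with Rab4, had a log2 fold change of -0.99, Ankfy1, a Rab5 effector of macropinosomes, of -1.38 (-0.86 with the length trend removed), and Zfyve26 of -0.997 (-0.30 and no longer called). The list with the length trend removed had 2 higher and 3 lower genes.

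Of 15 effectors of Rab7, including the HOPS tether and retromer, 14 were tested, 3 rose and 4 fell, and the median log2 fold change was 0.01. Plekhm1, a Rab7 effector whose loss causes osteopetrosis, averaged 16.0 ± 1.55 CPM in knockout-labelled libraries and 7.01 ± 1.55 CPM in control, a log2 fold change of 1.19 ± 0.18. The retromer subunits Vps35 and Vps29 had log2 fold changes of 0.60 (1.02 with the length trend removed) and 0.76. Fyco1, which links Rab7 to kinesin, averaged 2.76 ± 0.77 CPM in knockout-labelled libraries and 11.2 ± 1.09 CPM in control, a fall of 2.02 ± 0.22 on the log2 scale. Rilp, the Rab7 effector that recruits dynein, was close to 0 in all libraries and not tested.

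For Rab11 and recycling, 15 of 18 genes were tested, 2 rose and 6 fell, or 53.3% called beside 43.2% of all genes tested. With the length trend removed 2 rose and 3 fell. Ehd1, which pinches carriers from recycling endosomes, had 18.0, 16.8 and 16.5 CPM in knockout-labelled libraries, against 59.97, 59.3 and 62.4 CPM in control. Its fall of 1.82 ± 0.11 on the log2 scale had an adjusted p of 1.21e-07. Micall1, which recruits Ehd1 and binds Rab8 and Rab35, fell by 1.45 ± 0.32 on the log2 scale. The exocyst subunits Exoc2 and Exoc5 had log2 fold changes of -0.96 and -1.42 (Exoc5 -0.76 and no longer called with the length trend removed).

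Of 14 Golgi effectors 13 were tested, none rose and 4 fell, or 30.8% called beside 43.2% of all genes tested. With the length trend removed 1 was higher and 1 lower. Uso1, the tether bound by Rab1, averaged 4.25 ± 0.64 CPM in knockout-labelled libraries and 14.1 ± 0.60 CPM in control, a fall of 1.73 ± 0.17 on the log2 scale. Golga4, Gcc1 and Blzf1 had log2 fold changes of -0.92, -1.08 and -0.62 and were no longer called with the length trend removed. Of 2 Rab kinases and 1 Rab phosphatase only Lrrk2, which phosphorylates Rab8 and Rab10, was called, with a log2 fold change of -1.37 ± 0.31 (-0.84 with the length trend removed). None of 12 effectors of Rab27 and Rab3 was tested, and 10 of them were at 0 in every library. Only Unc13d and Rims3 had any count, at 0.0263 and 0.0298 CPM on average in knockout-labelled libraries and 0.0283 and 0.0173 CPM in control.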

How the data were processed

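The samples were 3 libraries labelled RhoA knockout and 3 control libraries of RAW264.7 cells. Per the labels' protocols, RNA was taken up in Trizol and an Illumina kit was used for the libraries. The values are whole-number counts per gene, deposited by the authors in 1 table without normalization. The submitters' processing notes name GRCm38 as the build. Neither the aligner and counter nor the use of strand and of reads with several matches is given in the sources used here. Of 55487 IDs, 55227 matched GENCODE M21. The comparison used edgeR 4.0.16 (R 4.3.3): filterByExpr at its defaults, TMM scaling and robust quasi-likelihood fits without a replicate term. The threshold was 0.05 after Benjamini-Hochberg adjustment over all 12930 genes tested, at a biological coefficient of variation of 0.323. Each SE was derived from the log2 fold change and its F statistic. The steps were tested on simulated data. Copies were sought with blastn 2.17.0 at 95% identity over 200 bases, or as overlapping genes, holding at least 10% of the member's count. Members and lists were chosen with earlier results of these data known. Values by library, or as mean and SD, are given for called genes of at least 2-fold, the 10 highest per kb, the osteoclast Rabs and their relatives. From each other list up to 4 called genes by p, or else the 2 of highest level, are named, and other genes were added after their values were seen. Alternatives changed scaling (DESeq2 1.42.0 size factors, library totals, without the 10 most abundant genes), filter, test, length trend, counts divided by 4, replicate block and the libraries used.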

Additional observations from a re-analysis of the deposited data

How the results depend on the processing

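Of the 22 called Rab genes 17 kept their call and direction under all 17 alternatives, 5 (Rab3d, Rab4a, Rab4b, Rab14 and Rab34) lost the call under some, and 0 turned. Rises numbered 7 to 10 and falls 11 to 13 with 1 library left out, the 7 without control replicate 2, and 7 rises and 12 falls with the replicate block and length correction together. With length correction alone 8 rose and 12 fell, Rab4b, Rab4a and Rab34 losing the call (log2 fold changes 0.33, 0.72 and 0.21), Rab11a gaining one (-0.42, adjusted p 0.0173), and Rab14 reaching 0.87. Library totals moved the median of all genes from -0.03 to 0.15, their calls to 3097 higher and 2083 lower against 2713 and 2879, and the Rab counts to 13 and 11, with Rab1a and Rab5c gained. Without replicate 3 of both groups, an alternative chosen after seeing the data, 12 fell, the early endosome class held 1 higher (Rab31, 0.31) and 4 lower, and Rab3d was not called (0.34). Of the regulators and effectors 24 rose and 26 fell with length correction and 23 fell with the block added; with 1 library left out 11 to 14 rose and 37 to 46 fell. Rhoa ran from 0.344 to 0.451 with 1 library left out. Deviations of same-numbered replicates from their group means correlated at -0.0059, 0.0277 and 0.0137. With 3 replicates per group this cannot decide whether replicate numbers pair the samples. The replicate block gave 10 rises and 12 falls among Rab genes, Rab3d not called and Rab11a called. The reversals were all of uncalled genes near 0. With 1 library left out Rab11b ran from -0.132 to 0.048, Rab13 from -0.265 to 0.404, Rab23 from -0.408 to 0.189, Rab27a from -0.281 to 0.504, Rab28 from -0.309 to 0.236, Rab29 from -0.220 to 0.077 and Rab5b from -0.107 to 0.316. Library totals gave 0.125 for Rab11b, 0.131 for Rab13, 0.151 for Rab23, 0.064 for Rab28 and 0.128 for Rab29. Length correction gave 0.170 for Rab11b, 0.059 for Rab18 and 0.301 for Rab23, and with the block added 0.177, 0.055 and 0.272. Without replicate 3 of both groups Rab11b, Rab13 and Rab23 stood at 0.045, 0.358 and 0.296. Rab13 was at 0.034 with the block and Rab29 at 0.010 with DESeq2. The causes of these moves were not tested. Genes near 0.5 CPM rest on few counts, which limits them to large changes.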
